A study of Mus musculus with 6 samples.

Results

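The genes described here are a set of 34 macrophage and myeloid genes, measured in skeletal muscle of mice in a series titled for SOCS-3, the suppressor of cytokine signalling. A gene was taken through the probe sets whose platform annotation gives it as the single symbol, and would have been read from the brightest of these on average. All 34 genes were found, each with 1 such probe set, among 19938 genes tested. The series holds 6 Affymetrix MoGene arrays, each of frozen muscle from a separately named subject. The labels call 3 subjects transgenic (TG) and 3 wild type (WT). The labels give neither the transgene with its promoter nor the muscle, strain, sex and age of the animals. Whether macrophage genes differed between TG and WT muscle is the comparison the design allows.

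Macrophages live between the fibres of healthy muscle, where they clear debris, and monocytes from blood add to them after injury. Growth and survival of the lineage depend on the receptor encoded by Csf1r, and its identity depends on the transcription factor PU.1, encoded by Spi1. Surface integrins let these cells adhere and take up complement-coated particles, Fc receptors bind antibody-coated ones, and small membrane adaptors carry immunoreceptor signals inward.

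Promoter sequences were available in the RefSeq tables for 25 of the 34 genes, as windows of 250 bases before to 50 bases after a gene's start in GRCm38.p6. The hexamer GAGGAA, the core of the PU.1 recognition sequence, was searched on both strands and lay in a window of 17 of these 25 genes (68.0%), against 31.3% of 27025 genes with such windows. Among the other motifs searched, the longer form GAGGAAGT, which contains the hexamer, was found in 4 genes (16.0%, against 3.69% of all genes) and the overlapping AGGAAGT in 10 (40.0%, against 10.7%). The AP-1 sequence TGANTCA was found in 5 of the 25 genes, against 8.97% of all genes, and a pair of TTTC runs separated by any pair of bases, as interferon regulatory factors bind, in 3 of the 25, against 3.99% of all genes. These matches describe letters in a window and do not show binding. Shown here are the windows of Itgam and Cd53, which had the largest differences between TG and WT among members with unadjusted p under 0.05, of the neighbouring complement genes C1qb and C1qc, whose levels varied most between arrays of the same group in their family, and of Cd68, which was uneven among the TG arrays. Capitals mark GAGGAA or its reverse complement TTCCTC, and each window is read 5′ to 3′ on the gene's strand.
Itgam promoter, chr7:128062390-128062689, + strand: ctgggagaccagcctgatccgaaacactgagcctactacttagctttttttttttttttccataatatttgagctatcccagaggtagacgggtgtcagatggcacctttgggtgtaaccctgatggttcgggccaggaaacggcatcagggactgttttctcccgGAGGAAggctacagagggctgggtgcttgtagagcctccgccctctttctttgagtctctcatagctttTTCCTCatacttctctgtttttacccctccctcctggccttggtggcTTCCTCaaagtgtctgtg
Cd53 promoter, chr3:106790100-106790399, - strand: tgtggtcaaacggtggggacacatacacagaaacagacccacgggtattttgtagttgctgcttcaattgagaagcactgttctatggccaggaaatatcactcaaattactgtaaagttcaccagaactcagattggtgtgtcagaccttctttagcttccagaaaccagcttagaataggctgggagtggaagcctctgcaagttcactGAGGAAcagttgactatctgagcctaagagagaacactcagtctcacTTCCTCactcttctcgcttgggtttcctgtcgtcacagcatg
C1qb promoter, chr4:136886151-136886450, - strand: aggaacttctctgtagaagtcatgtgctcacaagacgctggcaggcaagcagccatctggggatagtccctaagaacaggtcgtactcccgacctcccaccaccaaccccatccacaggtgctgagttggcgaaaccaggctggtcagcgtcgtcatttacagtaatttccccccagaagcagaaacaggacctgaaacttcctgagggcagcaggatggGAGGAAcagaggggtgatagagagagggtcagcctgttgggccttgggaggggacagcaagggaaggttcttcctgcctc
C1qc promoter, chr4:136892865-136893164, - strand: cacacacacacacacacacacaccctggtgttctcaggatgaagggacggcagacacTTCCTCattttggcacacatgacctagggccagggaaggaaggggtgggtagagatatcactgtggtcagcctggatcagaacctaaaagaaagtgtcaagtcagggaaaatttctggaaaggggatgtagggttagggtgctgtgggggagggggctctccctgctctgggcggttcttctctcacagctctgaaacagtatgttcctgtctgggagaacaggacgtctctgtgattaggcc
Cd68 promoter, chr11:69666121-69666420, - strand: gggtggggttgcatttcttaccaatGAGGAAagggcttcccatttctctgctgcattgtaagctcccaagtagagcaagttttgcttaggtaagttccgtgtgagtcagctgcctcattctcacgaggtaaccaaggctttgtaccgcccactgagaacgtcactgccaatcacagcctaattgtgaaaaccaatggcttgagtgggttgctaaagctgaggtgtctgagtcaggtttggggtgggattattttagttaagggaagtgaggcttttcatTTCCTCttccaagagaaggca

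The arrays were alike in median level and closely correlated, but not in every respect. The interquartile range over the genes tested was 3.27, 3.24 and 3.201 on the TG arrays, against 3.197, 3.15 and 3.11 on the WT arrays. WT array 3 gave the highest value of the 6 for 25.3% of all genes, beside 13.5% to 16.6% on the other arrays. Median log2 expression over all probe sets lay between 5.98 and 6.04, and correlations between arrays over the genes tested were 0.994 to 0.996. The 14 skeletal muscle fibre genes had log2 means of 13.29 ± 0.01 on TG arrays and 13.32 ± 0.02 on WT arrays (SD, n = 3 each), with the actin gene Acta1 between 14.57 and 14.62 on every array. In bulk muscle, fewer macrophages and less RNA per macrophage cannot be told apart. The number of arrays limits the precision of every value below, and the deposited values carry no call of signal over background.

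No member passed an adjusted p of 0.05 over all genes tested (limma with Benjamini-Hochberg adjustment), and the smallest adjusted p among them was 0.455. Over all genes, 0.00502% were called. At an unadjusted p under 0.05 there were 4 members, Itgam, Itgb2, Tyrobp and Cd53, all with higher values in TG, or 11.8% of the members, beside 1.96% of all genes in that direction. No member had an unadjusted p under 0.05 with lower values in TG, beside 4.79% of all genes. The TG values lay wholly above the WT values for 3 members (8.82%), beside 4.52% of all genes. They lay wholly below for none, beside 7.76% of all genes. Differences, TG minus WT, were above 0 for 23 of 34 members (67.6%), beside 43.8% of all genes, and their median was 0.059, beside -0.016. Without WT array 3, 15 members were above 0, beside 47.8% of all genes, and the median was -0.009, beside -0.006. The median was 0.027 without TG array 2 and 0.134 without TG array 3. The count at an unadjusted p under 0.05 in either direction was 7 without TG array 3 (20.6% of members, beside 7.85% of all genes in the same fit), 6 without WT array 2 (17.6%, beside 6.23%) and 3 without TG array 1 (8.82%, beside 5.29%). It was 2 (5.88%) without each of TG array 2, WT array 1 and WT array 3, beside 6.36%, 7.57% and 5.22% of all genes. With all arrays, the groups did not overlap in either direction for 3 members (8.82%), beside 12.3% of all genes. With 1 array left out, the share of all genes that separated was also higher. The count was 11 without TG array 3 (32.4% of members, beside 25.1% of all genes), 7 without WT array 2 (20.6%, beside 22.5%), 6 without WT array 3 (17.6%, beside 20.6%) and 5 without TG array 1 (14.7%, beside 21.2%). A count of 4 was found without TG array 2 (11.8%, beside 21.8%) and of 3 without WT array 1 (8.82%, beside 24.9%).

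**Figure D1:**
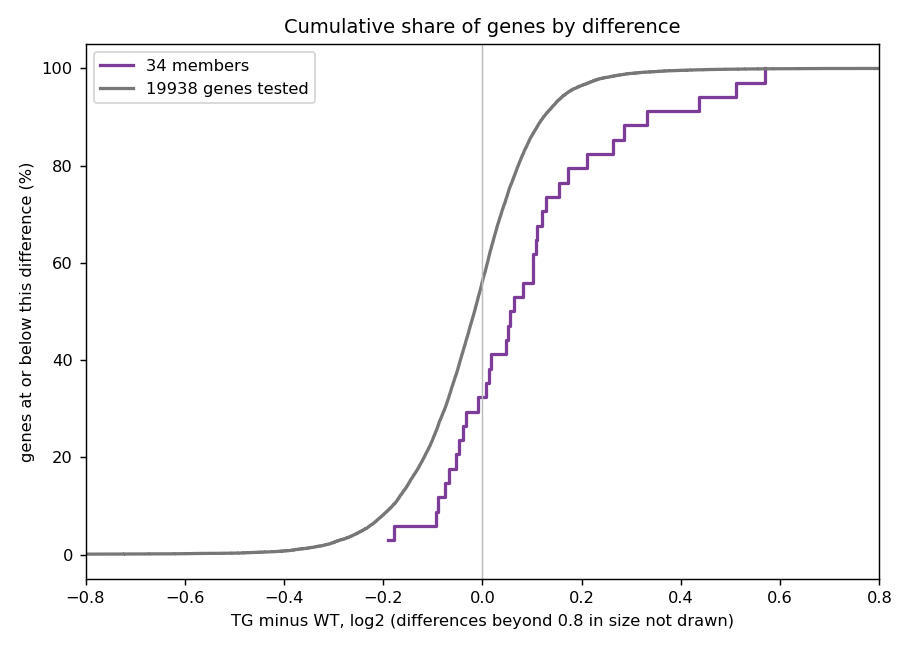
Cumulative share of genes (percent, vertical axis) at or below each difference between TG and WT (log2, horizontal axis), for the 34 members and for all 19938 genes tested. The members' curve runs to the right of that of all genes, with medians of 0.059 and -0.016. The lowest difference of a member is -0.191.

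The leukocyte integrin and surface genes had the largest differences of any role group, and all 6 were above 0, with a median of 0.20. Itgam, which encodes CD11b, the alpha chain of the complement receptor integrin of macrophages and neutrophils, stood at 5.76, 5.61 and 5.53 on TG arrays 1, 2 and 3, against 5.14, 5.17 and 4.88 on WT arrays 1, 2 and 3. Every TG array lay above every WT array, with a gap wider than the range within either group. The log2 difference was 0.57 (SE 0.10, 95% interval 0.33 to 0.81), or 1.48-fold, and did not pass (limma, adjusted p = 0.455). Leaving out 1 array at a time gave differences between 0.48 and 0.63. A further 3 probe sets are annotated to both the ribosomal protein gene Rpl35 and Itgam and were not used. They lay between 10.23 and 10.63, with differences of -0.03, -0.01 and -0.03.

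Itgb2, the beta chain (CD18) that pairs with CD11b, was at 6.42, 6.56 and 6.36 on the TG arrays, against 6.10, 6.35 and 6.03 on the WT arrays. The groups were separated only by the narrow step between TG array 3 and WT array 2. Its difference was 0.28 (SE 0.10; limma, adjusted p = 0.719). Cd53, a leukocyte tetraspanin, was at 6.82, 6.95 and 6.52 in TG, against 6.35, 6.55 and 6.09 in WT. TG array 3 lay just under WT array 2, so the groups overlapped, and the difference was 0.44 (SE 0.15; limma, adjusted p = 0.710).

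The remaining genes of that group had smaller differences. Ptprc, the common leukocyte phosphatase CD45, differed by 0.12 (SE 0.11), the lysosomal membrane gene Laptm5 by 0.11 (SE 0.13) and the actin regulator gene Coro1a by 0.06 (SE 0.11). Each of these intervals included 0.

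**Figure D2:**
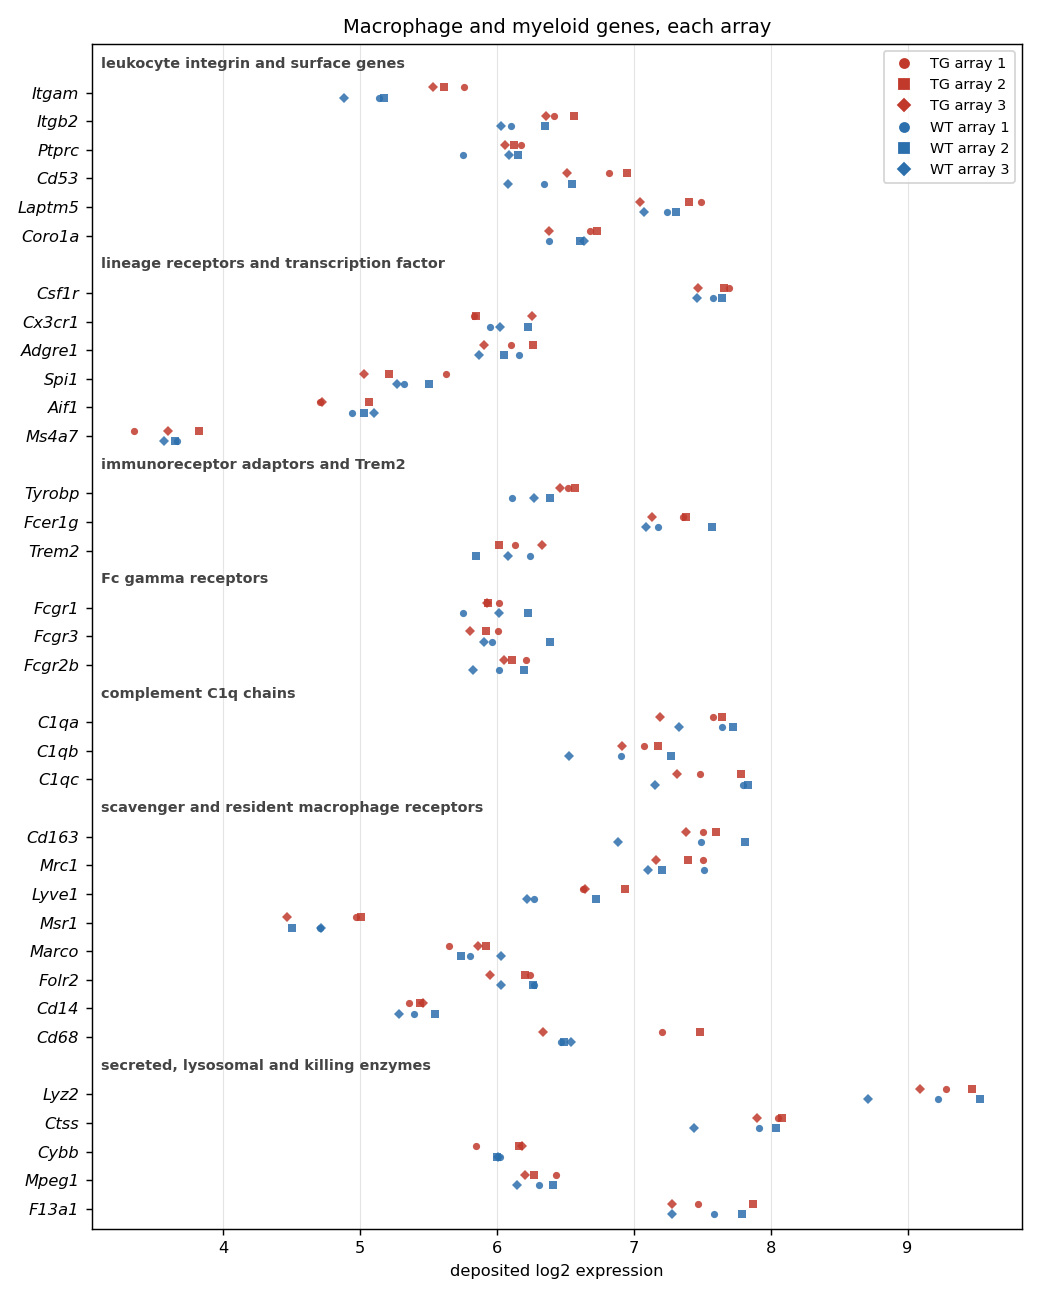
Deposited log2 expression (horizontal axis) of each member, listed by role, on the 3 TG arrays (red, upper of each pair of rows) and the 3 WT arrays (blue, lower), with circles, squares and diamonds for arrays 1, 2 and 3. For Itgam, Itgb2 and Tyrobp the red points lie wholly right of the blue ones, and Cd68 shows TG array 3 at 6.34, left of TG arrays 1 and 2 at 7.21 and 7.49.

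Of the lineage receptor and transcription factor genes, 2 of 6 had differences above 0, with a median of -0.06, and the groups overlapped for every one. Csf1r, the receptor for the macrophage growth factor, was at 7.69, 7.66 and 7.47 on the TG arrays, against 7.58, 7.65 and 7.47 on the WT arrays. Its values interleaved, and its difference was 0.05 (SE 0.09, 95% interval -0.16 to 0.25). Adgre1, which encodes the F4/80 antigen, differed by 0.06 (SE 0.11, 95% interval -0.20 to 0.33). Cx3cr1, the fractalkine receptor of monocytes and resident macrophages, differed by -0.09 (SE 0.13), and Spi1 by -0.08 (SE 0.15). Aif1, a calcium-binding protein of macrophages and microglia, was at 4.71, 5.07 and 4.72 in TG, against 4.94, 5.03 and 5.10 in WT. TG arrays 1 and 3 were its lowest, TG array 2 was among the WT values, and its difference of -0.19 (SE 0.11; limma, adjusted p = 0.791) was the lowest of the 34. Ms4a7, a membrane gene of tissue macrophages, stood between 3.35 and 3.83 over all arrays and differed by -0.03 (SE 0.12).

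Among the immunoreceptor adaptors, Tyrobp separated the groups and Fcer1g did not. Tyrobp encodes DAP12, the partner of TREM2 and other activating receptors, and was at 6.52, 6.57 and 6.46 in TG, against 6.11, 6.39 and 6.27 in WT. All 3 TG arrays lay above all 3 WT arrays, and the TG values spanned a narrower range than the WT values. Its difference was 0.26 (SE 0.09, 95% interval 0.06 to 0.47; limma, adjusted p = 0.710). Fcer1g, the common gamma chain of Fc receptors, differed by 0.01 (SE 0.14), and Trem2, a lipid-sensing receptor, by 0.10 (SE 0.12). Of the Fc gamma receptors, Fcgr3, an activating receptor, was at 6.01, 5.92 and 5.80 in TG, against 5.97, 6.39 and 5.91 in WT. Its highest value was on WT array 2, its lowest on TG array 3, and the difference was -0.18 (SE 0.13; limma, adjusted p = 0.813). Fcgr1, the high-affinity receptor, differed by -0.04 (SE 0.12) and the inhibitory receptor gene Fcgr2b by 0.11 (SE 0.10). Fcgr2b and Fcgr3 lie close together on chromosome 1 and encode similar extracellular parts, and whether their probe sets share sequence was not examined here.

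The complement C1q genes encode the 3 chains of the recognition protein of the classical pathway, which tissue macrophages secrete, and lie next to one another on chromosome 4 with 0 protein-coding genes between neighbours. Their array values are given because they varied widely within the groups, a choice made after the values were seen. C1qa was at 7.58, 7.64 and 7.19 in TG, against 7.64, 7.72 and 7.33 in WT. C1qb was at 7.08, 7.18 and 6.91 in TG, against 6.91, 7.27 and 6.53 in WT. C1qc was at 7.48, 7.78 and 7.32 in TG, against 7.80, 7.83 and 7.15 in WT. All 3 chains were highest on WT array 2, and within each group all 3 were lowest on array 3. Their differences between TG and WT were -0.09 (SE 0.15), 0.15 (SE 0.18) and -0.07 (SE 0.20), each smaller than the range among the WT arrays, which was 0.39, 0.74 and 0.68.

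Of the scavenger and resident macrophage receptors, 6 of 8 had differences above 0, with a median of 0.09, and the groups overlapped for every one. Cd68, a lysosomal glycoprotein of phagocytes, was at 7.21, 7.49 and 6.34 on the TG arrays, against 6.47, 6.49 and 6.54 on the WT arrays. TG arrays 1 and 2 were high, TG array 3 was the lowest of all 6, and the WT arrays lay within 0.07 of one another. Its difference was 0.51 (SE 0.26; limma, adjusted p = 0.774), with 0.27 when TG array 2 was left out and 0.85 when TG array 3 was left out. Lyve1, a hyaluronan receptor of a resident macrophage subset that lymphatic endothelium also carries, was at 6.63, 6.94 and 6.64 in TG, against 6.27, 6.72 and 6.22 in WT. WT array 2 lay among the TG values, and the difference was 0.33 (SE 0.15; limma, adjusted p = 0.741). Of the 5 lymphatic endothelial genes measured 3 were above 0, and the list's mean was 6.07 ± 0.06 on TG arrays and 6.02 ± 0.06 on WT arrays (SD, n = 3 each). Mmrn1, an extracellular matrix protein gene of that endothelium, was at 5.18, 5.33 and 5.04 in TG, against 4.97, 5.01 and 4.96 in WT. Every TG array lay above every WT array, and its difference was 0.21 (SE 0.09; limma, adjusted p = 0.738). The other 4 differed by 0.10 (SE 0.10) for Pdpn, -0.09 (SE 0.09) for Reln, 0.04 (SE 0.08) for Prox1 and -0.01 (SE 0.08) for Flt4. Their part in the Lyve1 difference was not tested.

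Msr1, a class A scavenger receptor, was at 4.97, 5.01 and 4.47 in TG, against 4.71, 4.50 and 4.72 in WT. TG array 3 was again the lowest, and the difference was 0.17 (SE 0.15; limma, adjusted p = 0.841), with 0.08 when TG array 2 was left out and 0.34 when TG array 3 was left out. Cd163, the haemoglobin scavenger receptor, had the widest range among the WT arrays of any member, 0.93, and its values are given for that reason. It was at 7.51, 7.60 and 7.38 in TG, against 7.49, 7.81 and 6.88 in WT, a difference of 0.10 (SE 0.21). Mrc1, the mannose receptor, differed by 0.08 (SE 0.13), the folate receptor gene Folr2 by -0.05 (SE 0.11), the scavenger receptor gene Marco by -0.05 (SE 0.11) and Cd14, a co-receptor for bacterial lipopolysaccharide, by 0.01 (SE 0.08).

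The secreted, lysosomal and killing enzymes had 4 of 5 differences above 0, none of them larger than 0.21. Ctss, the antigen-processing protease cathepsin S, was at 8.05, 8.08 and 7.90 in TG, against 7.92, 8.04 and 7.44 in WT. WT array 3 stood well under the other 5 arrays, which lay close together, and the difference was 0.21 (SE 0.15; limma, adjusted p = 0.810), or 0.03 without WT array 3. Lyz2, the lysozyme of myeloid cells, was at 9.28, 9.47 and 9.09 in TG, against 9.22, 9.53 and 8.71 in WT. It was highest on WT array 2 and lowest on WT array 3, with a difference of 0.13 (SE 0.20) that was -0.09 without WT array 3. Cybb, the catalytic subunit of the phagocyte NADPH oxidase, differed by 0.05 (SE 0.10), the pore-forming gene Mpeg1 by 0.02 (SE 0.09) and F13a1, the transglutaminase chain of coagulation factor XIII, by -0.01 (SE 0.18).

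**Figure D3:**
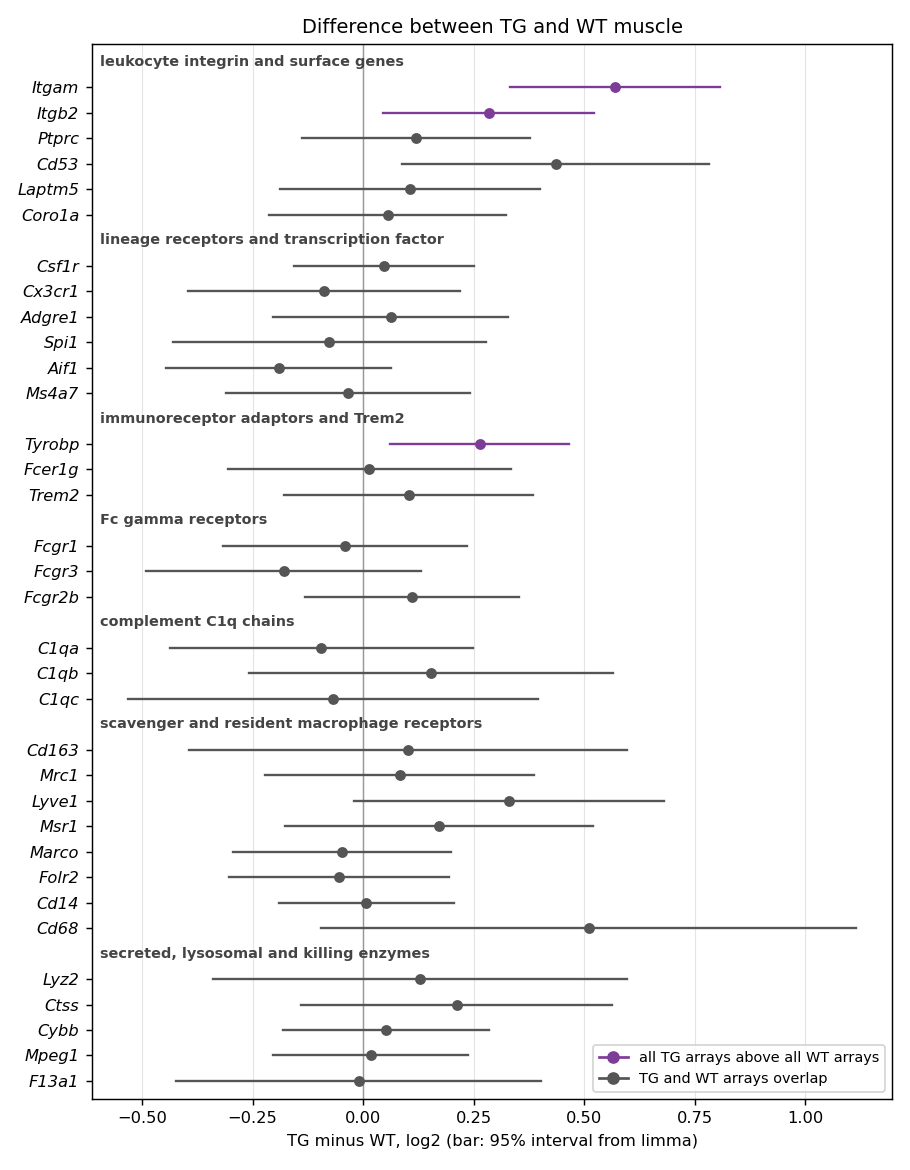
TG minus WT difference of each member (log2, points) with its 95% interval from limma (bars), listed by role. Purple marks Itgam, Itgb2 and Tyrobp, whose TG and WT arrays do not overlap. The intervals of 30 of 34 members include 0, and those of 4 (11.8%) exclude it, beside 6.75% of all genes.

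The members varied more between arrays of the same group than genes did in general. The pooled within-group SD had a median of 0.18 over the members and 0.11 over all genes tested. The 95% interval of the difference included 0 for 30 of 34 members (88.2%). It excluded 0 for 4 members (11.8%), beside 6.75% of all genes. For 30 members the range among the WT arrays exceeded the size of the difference, a count that was not made over all genes. Much of this spread was shared. Within WT, array 3 gave the lowest value for 23 of 34 members (67.6%), beside 25.7% of all genes, and array 2 gave the highest for 23 members, beside 28.2% of all genes. Within TG, array 3 gave the lowest value for 26 members (76.5%), beside 29.8% of all genes, and array 2 the highest for 19 (55.9%), beside 33.0%. Taken over both groups, WT array 3 was the lowest of the 6 for 17 of 34 members, beside 12.1% of all genes. After each member was set to its own mean over the arrays, the median over the members was 0.08, 0.14 and -0.08 on TG arrays 1, 2 and 3, against -0.02, 0.10 and -0.17 on WT arrays 1, 2 and 3. Arrays of both genotypes therefore stood on either side of 0. Their mean level was 6.51, 6.58 and 6.35 in TG, against 6.39, 6.52 and 6.26 in WT, so that TG array 3 lay under WT arrays 1 and 2.

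**Figure D4:**
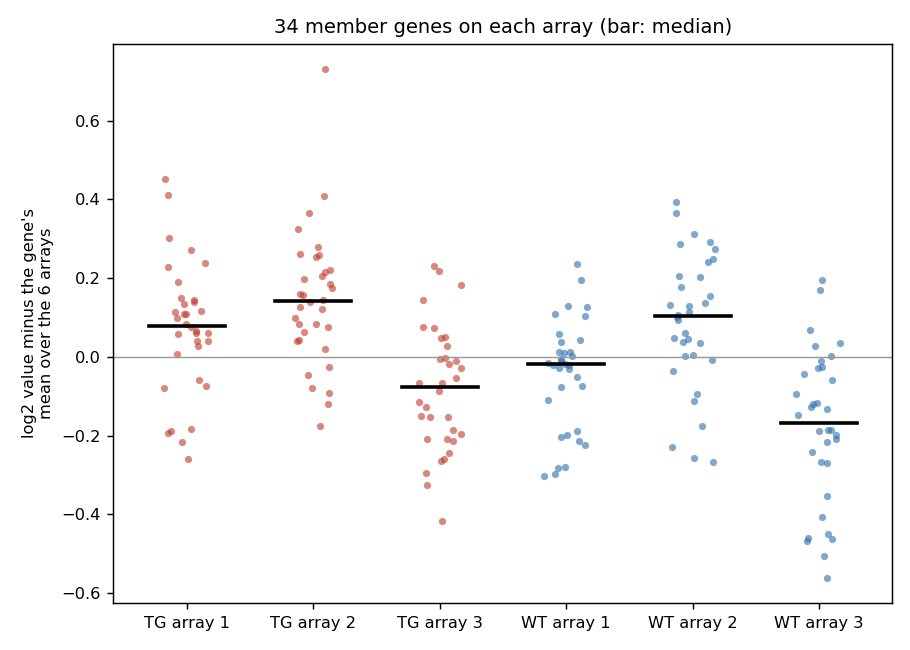
Each member's log2 value minus its own mean over the 6 arrays (vertical axis), for TG arrays 1 to 3 (red) and WT arrays 1 to 3 (blue), 1 point per gene with horizontal spread for legibility only and black bars for medians. The medians are lowest on WT array 3 (-0.17) and TG array 3 (-0.08) and highest on TG array 2 (0.14) and WT array 2 (0.10).

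Other genes of the same pathways were read from 11 lists. None of them passed over all genes tested. Monocyte recruitment genes had 5 of 8 differences above 0 and a median of 0.24. The chemokine gene Ccl7 was at 5.95, 5.85 and 5.74 in TG, against 5.42, 5.71 and 5.56 in WT, with the groups apart and a difference of 0.28 (SE 0.10). Ccl8, another chemokine gene, was at 3.91, 4.25 and 4.22 in TG, against 4.38, 4.70 and 4.39 in WT, with the groups apart in the other direction and a difference of -0.36 (SE 0.12). Ccr2, the main chemokine receptor of inflammatory blood monocytes, was at 5.82, 5.34 and 5.05 in TG, against 4.60, 4.87 and 5.06 in WT, where TG array 3 and WT array 3 were nearly equal, and it differed by 0.56 (SE 0.20).

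Integrin partners had 6 of 10 differences above 0 and a median of 0.01. Itga4, the alpha chain of a leukocyte integrin that binds VCAM1, was at 7.58, 7.45 and 7.39 in TG, against 7.80, 7.76 and 7.59 in WT, with every TG array below every WT array and a difference of -0.25 (SE 0.09). The ligand gene Icam1 differed by -0.11 (SE 0.13) and the integrin activator gene Fermt3 by 0.05 (SE 0.06). Among complement genes outside the C1q family 4 of 9 were above 0 and 5 below, among the latter Cd59a at -0.25 (SE 0.20). C3ar1, the receptor for the C3a fragment, was at 6.37, 6.43 and 6.13 in TG, against 6.08, 6.09 and 6.02 in WT, with the groups apart and a difference of 0.24 (SE 0.09), and C5ar1, the receptor for C5a, differed by 0.34 (SE 0.17).

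Growth factor receptors and ligands of the lineage had 3 of 10 differences above 0, with Csf2rb, the shared beta receptor chain, at 0.27 (SE 0.12), the fractalkine gene Cx3cl1 at -0.25 (SE 0.15) and Csf3r at 0.11 (SE 0.13). Myeloid transcription factors had 3 of 11 above 0, with Batf3 at -0.11 (SE 0.07). Immunoreceptor signalling genes had 9 of 12 above 0 and a median of 0.03, with the kinase gene Btk at 0.18 (SE 0.10). NADPH oxidase genes had 1 of 5 above 0, with the cytosolic subunit gene Ncf4 at -0.16 (SE 0.11), and antigen presentation genes 1 of 6, with the class II transactivator gene Ciita at -0.16 (SE 0.10).

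Genes that mark activation states had differences of both signs. The inflammatory list had 3 of 10 differences above 0 and a median of -0.05, with the interleukin subunit gene Il12b at -0.31 (SE 0.10) and Nos2, the inducible nitric oxide synthase, at -0.29 (SE 0.13). The alternative activation list had 4 of 11 above 0 and a median of -0.01. Its gene of smallest p, the carbonyl reductase gene Cbr2, was at 9.10, 8.92 and 8.73 in TG, against 9.34, 9.20 and 9.33 in WT, with every TG array below every WT array and a difference of -0.37 (SE 0.10; limma, adjusted p = 0.660). Retnla, a secreted product of alternatively activated macrophages, differed by 0.39 (SE 0.24). The lysosome and lipid list had 6 of 12 above 0 and a median of 0.00, with the acid lipase gene Lipa at 0.23 (SE 0.10).

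Markers of other cell types that share members with macrophages were read on the same arrays. Neutrophils also carry Itgam, Itgb2 and Tyrobp. The neutrophil list had a median level of 4.27, beside 6.42 over all genes tested, which limits what its differences can show. Median levels of the dendritic, mast, T and NK, and B cell lists were 5.11, 5.04, 4.31 and 4.70. Of 11 neutrophil genes 6 were above 0, with a list mean of 4.42 ± 0.04 on TG arrays and 4.43 ± 0.10 on WT arrays (SD, n = 3 each), S100a8 at -0.29 (SE 0.14), S100a9 at 0.01 (SE 0.13), Ngp at 0.19 (SE 0.09), Camp at 0.07 (SE 0.10) and Retnlg at -0.14 (SE 0.10). Dendritic cell genes had 4 of 7 above 0 and a median of 0.00. The transcription factor gene Zbtb46 was at -0.28 (SE 0.08), Cd209a at -0.11 (SE 0.08) and Cd24a at 0.08 (SE 0.08). T and NK cell genes had 5 of 8 below 0, with Cd3g at -0.30 (SE 0.09), and B cell genes 5 of 6 below 0, with Blk at -0.33 (SE 0.12). Mast cell genes had a list mean of 5.13 ± 0.02 on TG arrays and 5.13 ± 0.07 on WT arrays (SD, n = 3 each), and their protease genes Cpa3, Cma1, Mcpt4 and Tpsb2 differed by 0.08, 0.00, 0.12 and 0.01.

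Osteoclasts arise from the macrophage lineage and share Cd68 and Tyrobp with it. Of the 8 osteoclast genes measured 3 were above 0, and the list mean lay between 5.62 and 5.87 in TG and between 5.58 and 5.73 in WT. Acp5, the tartrate-resistant phosphatase, was at 7.41, 6.76 and 6.51 in TG, against 6.18, 6.07 and 6.35 in WT, and the bone-degrading protease gene Ctsk was at 7.67, 7.33 and 6.94 in TG, against 6.75, 6.59 and 6.88 in WT. For both genes every TG array lay above every WT array. Their differences were 0.69 (SE 0.21; limma, adjusted p = 0.699) for Acp5 and 0.57 (SE 0.18; limma, adjusted p = 0.687) for Ctsk. Both ran in the order of Itgam among the TG arrays, highest on array 1 and lowest on array 3. Among the WT arrays they ran in the reverse order of Itgam, highest on array 3 and lowest on array 2. Their part in the Itgam difference was not tested. The list held differences of both signs. Ocstamp, a membrane gene of osteoclast fusion, was at 5.88, 5.91 and 5.79 in TG, against 6.001, 5.97 and 6.21 in WT, with every TG array below every WT array and a difference of -0.20 (SE 0.08). Dcstamp and Atp6v0d2, named after their values were seen, differed by -0.24 (SE 0.13) and -0.20 (SE 0.12), and the further defining markers Mmp9 and Oscar by 0.25 (SE 0.13) and -0.04 (SE 0.07). Bone-forming cell genes averaged 5.93, 5.52 and 5.31 on the TG arrays, against 5.43, 5.26 and 5.38 on the WT arrays, with TG array 1 the highest, and Ibsp, Mmp13 and Sp7 differed by 0.68 (SE 0.35), 0.78 (SE 0.54) and -0.05 (SE 0.15).

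Liver transcripts were uneven between arrays. The 7 hepatocyte genes averaged 6.98, 8.56 and 5.70 on TG arrays 1, 2 and 3, against 7.41, 7.99 and 8.18 on WT arrays 1, 2 and 3. Alb, Apoa1, Apoa2 and Ttr differed by -0.999 (SE 0.96), -0.78 (SE 0.46), -0.61 (SE 0.51) and -0.70 (SE 0.51). TG array 3 was lowest for both hepatocyte and, within TG, most macrophage genes, whereas WT array 3 was highest in its group for hepatocyte genes and lowest for most macrophage genes. The hepatocyte mean as a covariate was an alternative added after seeing the data. With it, 25 of 34 members were above 0, beside 43.9% of all genes, and the members' median was 0.112, against 0.059 without it. An unadjusted p under 0.05 was found for 6 members (17.6%, beside 6.88% of all genes), against 4 without it. None passed (limma). Adipocyte genes had 6 of 7 differences above 0, with the adiponectin gene Adipoq at 0.64 (SE 0.09; limma, adjusted p = 0.299). Fibroblast genes had 8 of 9 above 0, and Pi16, at -0.28 (SE 0.08), was the exception. Of the others, Pdgfra differed by 0.16 (SE 0.07), with the groups apart, and Col3a1 by 0.28 (SE 0.13). The part of either list in the members' values was not tested.

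**Figure D5:**
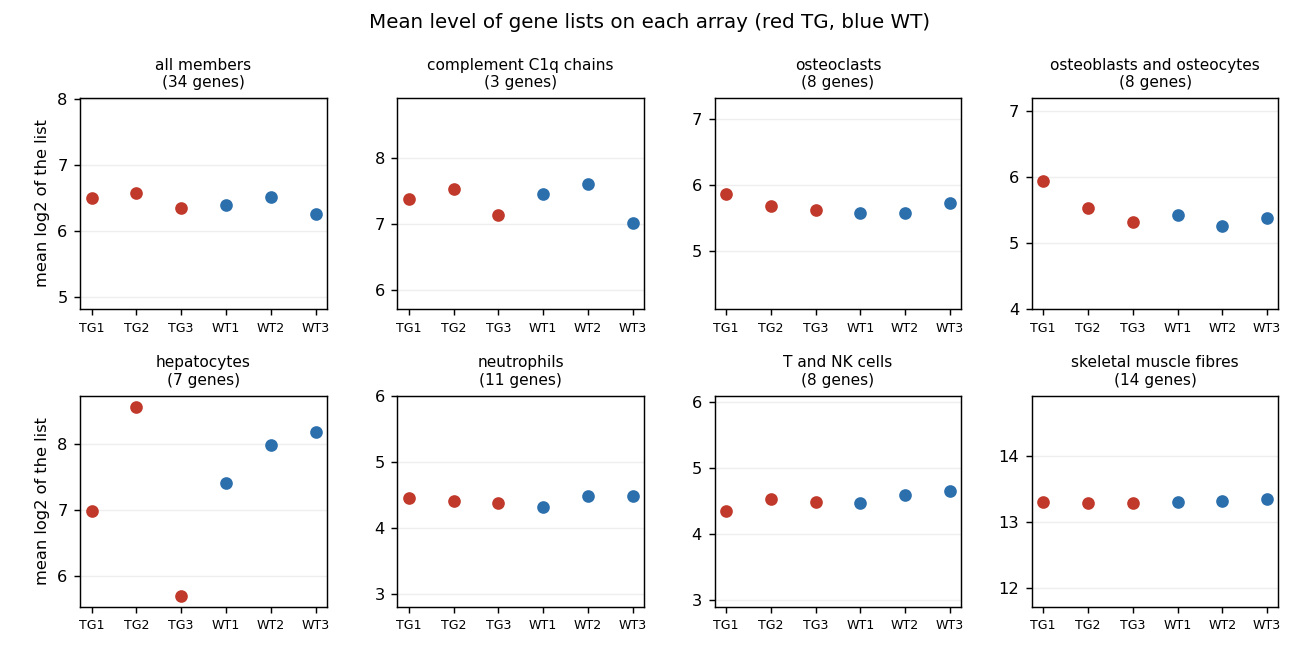
Mean log2 level (vertical axes, each spanning the same number of log2 units) of 8 gene lists on TG arrays 1 to 3 (red) and WT arrays 1 to 3 (blue). The 34 members and the C1q chains are lowest on WT array 3, at 6.26 and 7.00, the hepatocyte list runs between 5.70 and 8.56, and the muscle fibre list stays between 13.28 and 13.34.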

How the data were processed

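Total RNA of frozen skeletal muscle was extracted with Trizol, purified on columns and labelled with biotin, per the labels' protocols. The authors deposited log2 expression values for 35557 probe sets on 6 arrays, between 1.41 and 15.1. Their range gave the scale. How the probe sets were summarized and normalized is not given in the labels, and values were used as deposited. Arrays were grouped as TG or WT by their labels, and replicate numbers follow deposit order and pair nothing. All arrays carry the same date in the labels.

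Of the probe sets, 21789 had 1 symbol in the platform annotation, 1621 had several and 12147 had none. TG was tested against WT in limma 3.58.1 (lmFit, eBayes; R 4.3.3), two-sided, with Benjamini-Hochberg adjustment over 19938 genes and a threshold of 0.05. The steps were tested on simulated data with noise independent between genes, and so without the spread between arrays that the members shared. The members, lists and tests were chosen with earlier results of these data known, so lists are described by counts and medians and not tested. Array values are given for the 10 members of smallest p and the 3 of highest mean value, up to 3 genes per other list are named by smallest p, and the first 4 of a cell type list as its defining markers where its level is given. Promoters came from RefSeq (GRCm38.p6). The alternatives left out each array, changed the variance model (trend, robust, array weights), the level filter, the probe set rule or the scaling, or used exact permutation. Figures were drawn with matplotlib 3.10.9.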

Additional observations from a re-analysis of the deposited data

How the results depend on the processing

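No paired analysis was possible because the labels carry no replicate numbers shared between the groups. The count of members past the threshold was 0 under all 15 alternative fits (limma). With all members in the fit, 2 to 7 (5.88% to 20.6%) had an unadjusted p under 0.05, beside 5.22% to 7.85% of all genes. With the dimmer genes dropped there was 1 (6.67%), beside 6.88%. The smallest adjusted p of a member over the alternatives was 0.292, for Itgam with an intensity trend. The exact permutation test over the 6 arrays, two-sided, gave p = 0.1, the smallest it can give, for Itgam, Itgb2 and Tyrobp. Over all genes, 1 gene passed as reported, 7 with an intensity trend, 2 among genes above the median level, and 0 with robust moderation, a common array median, the hepatocyte covariate, or any 1 array left out (0 to 0). Genes above the median level held 15 of the members. Of these 12 were above 0, beside 52.9% of all genes in that fit, and 0 were without overlap, beside 12.4%. Leaving out 1 array gave 15 to 26 members above 0, beside 41.8% to 47.8% of all genes, and member medians of -0.0086 to 0.134. It left 3 to 11 members without overlap. The lowest share was 8.82% without WT array 1, beside 24.9% of all genes, and the highest 32.4% without TG array 3, beside 25.1%. The share of all genes above 0 was 51.2% with a common array median, against 43.8% as deposited, and 24 members were then above 0.

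Signs of single members held under every alternative for 13 of 34, Itgam, Itgb2, Cd53, Tyrobp, Cd68, Lyve1, Ctss, Msr1, Laptm5 and Fcgr2b on the higher side and Aif1, Fcgr3 and Cx3cr1 on the lower. Several came near 0 with 1 array left out: the ranges were 0.017 to 0.20 for Fcgr2b, 0.019 to 0.24 for Laptm5, 0.033 to 0.33 for Ctss, 0.075 to 0.34 for Msr1, -0.23 to -0.0080 for Cx3cr1, -0.27 to -0.028 for Fcgr3 and -0.31 to -0.13 for Aif1. With the hepatocyte covariate the sign turned for Ms4a7 (0.023), C1qc (0.014), Cd14 (-2.3e-04) and F13a1 (0.13), and F13a1 also turned with array weights (0.0038) and a common median (0.010). The cause was not tested. With 1 array left out, differences ran from -0.0015 to 0.20 for Ptprc, -0.024 to 0.16 for Coro1a, -0.0013 to 0.12 for Csf1r, -0.024 to 0.15 for Adgre1, -0.25 to 0.053 for Spi1, -0.15 to 0.086 for Ms4a7 and -0.082 to 0.16 for Fcer1g. Those ranges were -3.9e-04 to 0.19 for Trem2, -0.16 to 0.074 for Fcgr1, -0.21 to 0.045 for C1qa, -0.034 to 0.34 for C1qb, -0.29 to 0.052 for C1qc, -0.15 to 0.31 for Cd163 and -0.0012 to 0.20 for Mrc1. They were -0.11 to 0.038 for Marco, -0.13 to 0.036 for Folr2, -0.055 to 0.077 for Cd14, -0.092 to 0.32 for Lyz2, -0.0066 to 0.16 for Cybb, -0.053 to 0.078 for Mpeg1 and -0.17 to 0.12 for F13a1. The cause was not tested. These turns are of differences whose intervals included 0.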
